A study of Mus musculus with 21 samples.

Results

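The stem cell identity genes described here are 10 genes that mark or maintain blood stem cells: the transcription factors Mecom, Hlf and Meis1, the nuclear cofactors Mllt3 and Hopx, the signalling protein Fgd5, and the surface proteins Kit, Ly6a, Slamf1 and Procr. They were taken by symbol from the 2 gene tables of hematopoietic stem cells (HSC), which list 13513 and 13636 genes, and all 10 were found in both tables and passed the filter on low values in every comparison. The study set physically active against sedentary MMTV-PyMT mice, in which the mouse mammary tumour virus promoter drives a polyoma middle T transgene and mammary tumours form. The question addressed here is how these genes stood while myeloid genes differed between the same HSC libraries. Every HSC group carried the MMTV-PyMT genotype, so no group shows HSC of mice without the transgene. Sedentary HSC came from sedentary mice at week 12, and active HSC from physically active mice at week 12. Transplant HSC came at week 14 from sedentary mice that had received cells of a physically active mouse. Each group had 3 libraries, which the labels call biological replicates, and p-values measure the spread between these libraries. The sorting gates, and whether cells of the transplant donor were separated from those of the host, are not given in the sources used here.

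Blood stem cells give rise to all blood lineages and renew themselves, and only a small share of them keeps this ability for long after transplantation. Mecom, Hlf and Meis1 hold the gene programme of these long-term cells, whereas Slamf1, Procr, Kit and Ly6a are surface proteins by which they are sorted. As cells move toward multipotent and myeloid progenitors, long-term markers are lost and granule genes such as Mpo and Elane are switched on.

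Recovered totals ran from 16406889 to 72417315 reads per library, and replicate 3 was the deepest in each group, with 58500940 reads or more. The names of these deep libraries also hold a letter, while the other names are numbers. One library could not be settled. Active replicate 2, library 6 in the labels, has a column in each HSC table. Its header reads P3 (6) in the table with sedentary HSC and P2 (6) in the table with transplant HSC. The other shared active columns have the same header in both. The reads of the columns of library 6 differed at 13086 of 13380 shared genes, against 4 genes for each of the other shared active libraries. Across 10794 of these genes, those with a mean of at least 50, the column in the table with sedentary HSC correlated with transplant libraries at 0.961 to 0.977 and with sedentary libraries at 0.883 to 0.917 (Pearson r of log2 values, a description). The column in the table with transplant HSC correlated with sedentary libraries at 0.985 to 0.990 and with transplant libraries at 0.927 to 0.950. No more than 1 of them can hold library 6, so results with active HSC are given with each column and, in a fit of the 8 other libraries, without both. The comparison of transplant with sedentary HSC uses neither.

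Levels are given as normalized read counts. The authors scaled the tables separately, so for levels across all groups the whole reads recovered from both tables were brought to 1 scale by the median of ratios. On this scale the log2 fold changes of the 10 members within each deposited table moved by at most 0.01. Per kilobase of exon in GENCODE M21, which gave lengths for 12798 of 13380 shared symbols, Ly6a (the GPI-anchored antigen Sca-1) was the highest of the 10 in sedentary HSC at 1105 ± 263 normalized reads per kb (SD, n = 3), the 89.2 percentile of all genes. Kit, the stem cell factor receptor, followed at 642 ± 74.7 per kb. Meis1 at 150 ± 3.72 and Hlf at 109 ± 8.81 per kb lay under the median gene, which stood at 159 per kb. The values of Ly6a and Kit did not overlap over the sedentary libraries (lowest Ly6a value 846, highest Kit value 722 per kb), nor did those of Meis1 and Hlf.

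The long-term markers were low. Procr reached 44.4 ± 12.8 per kb, Mllt3 36.4 ± 7.57 and Hopx 19.7 ± 1.10, and the ranges of Procr and Mllt3 overlapped. Mecom at 11.5 ± 1.62, Fgd5 at 8.40 ± 3.02 and Slamf1 at 7.93 ± 0.325 per kb closed the order, at the 19.1, 16.9 and 16.6 percentiles. Fgd5, which spanned 5.46 to 11.5 per kb, overlapped both of its neighbours. Genes that mark progenitors rather than long-term stem cells stood far higher on the same scale. Cd48 lay at the 94.6 percentile, Cd34 at the 95.5, Flt3 at the 71.1, the cell cycle gene Mki67 at the 97.0 and the myeloid granule gene Mpo at the 99.8 percentile in sedentary HSC. The libraries labelled HSC therefore held RNA of cells with Kit and Ly6a in which defining markers of long-term stem cells were detected at low levels, and they are called HSC below only as the labels do. In bulk RNA, fewer cells of a type and less RNA per cell cannot be told apart.

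Promoters are shown for the 4 genes that differed between transplant and sedentary HSC by the test described with the values, namely Mecom and Hlf, which were lower, and Slamf1 and Hopx, which were higher. The sequences are from RefSeq on GRCm38.p6, the build that mm10 names, and run 5′ to 3′ on the gene's strand from 250 bases before to 50 bases after an annotated start. They were matched by symbol for 9 of the 10 genes, and where a gene had 2 starts the more upstream one was used. The windows are chr3:30509710-30510009 for Mecom (minus strand, inside the gene, which spans chr3:29951296-30548008 in GENCODE M21), chr11:90390868-90391167 for Hlf (minus), chr1:171766882-171767181 for Slamf1 (plus) and chr5:77115074-77115373 for Hopx (minus). Capitals mark matches on either strand. The letters searched were AGATAA and also, as a second form of the same zinc finger factors of the GATA family, TGATAA. For the ETS family of factors, which bind purine-rich sites, they were CCGGAA. For the RUNX family of factors that act in stem cells they were TGTGGT. For the E-box, which factors of the helix-loop-helix kind bind, they were CAGCTG. No matches overlapped in these windows.
Mecom: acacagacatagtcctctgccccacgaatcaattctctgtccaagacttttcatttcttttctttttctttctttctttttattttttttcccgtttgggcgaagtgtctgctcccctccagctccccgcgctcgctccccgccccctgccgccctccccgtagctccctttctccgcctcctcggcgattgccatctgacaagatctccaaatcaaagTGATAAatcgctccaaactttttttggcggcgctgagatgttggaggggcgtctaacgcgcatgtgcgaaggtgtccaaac
Hlf: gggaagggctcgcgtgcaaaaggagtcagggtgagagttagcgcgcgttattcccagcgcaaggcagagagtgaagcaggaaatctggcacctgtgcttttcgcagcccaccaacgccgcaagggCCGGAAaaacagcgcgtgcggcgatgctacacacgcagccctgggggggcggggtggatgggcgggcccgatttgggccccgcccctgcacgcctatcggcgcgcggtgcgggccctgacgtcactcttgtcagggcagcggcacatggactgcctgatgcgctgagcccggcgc
Slamf1: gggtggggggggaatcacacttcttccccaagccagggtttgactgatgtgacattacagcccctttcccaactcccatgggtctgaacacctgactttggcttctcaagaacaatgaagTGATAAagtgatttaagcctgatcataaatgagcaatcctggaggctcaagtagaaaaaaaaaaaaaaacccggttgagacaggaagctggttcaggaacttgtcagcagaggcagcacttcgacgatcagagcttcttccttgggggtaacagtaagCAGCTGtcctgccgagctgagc
Hopx: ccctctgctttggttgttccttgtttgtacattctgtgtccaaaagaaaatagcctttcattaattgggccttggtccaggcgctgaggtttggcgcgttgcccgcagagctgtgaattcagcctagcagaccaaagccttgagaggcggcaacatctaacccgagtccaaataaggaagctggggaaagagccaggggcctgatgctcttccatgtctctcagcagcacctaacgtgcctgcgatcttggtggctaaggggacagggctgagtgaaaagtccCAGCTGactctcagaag

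Mecom and Slamf1 each held TGATAA, although 1 gene was lower and the other higher in transplant HSC. GATA letters were in 2 of 9 member promoters, against 18.6% of 32851 RefSeq promoters of the same length. CCGGAA was in the windows of Hlf and Meis1 (14.9% of all promoters) and TGTGGT in that of Meis1 alone (16.8%). CAGCTG was in 4 of the 9, those of Procr, Slamf1, Mllt3 and Hopx, against 16.3% of all promoters. In Slamf1 and Hopx it lay 28 and 33 bases past the start, and in Procr 34 bases before it. These matches are a description of letters and not of bound sites.

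Among the transcription factors, Mecom and Hlf were lower in transplant than in sedentary HSC. Mecom encodes a zinc finger factor needed for the upkeep of long-term stem cells. Its normalized read counts were 160, 148 and 121 in sedentary replicates 1 to 3 and 86.1, 45.3 and 54.7 in transplant replicates 1 to 3. In the active libraries it stood at 57.3 in replicate 1, 129 in replicate 3, and 69.1 or 178 for library 6 in the table with sedentary or with transplant HSC. All transplant libraries lay under all sedentary ones, and the active libraries spanned both ranges. The log2 fold change of transplant over sedentary HSC was -1.23 with a standard error of 0.26 (limma adjusted p = 0.0396). Its exons share 81 bases with the antisense gene Mecomos, and the strand used in counting is not given in the sources used here.

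Hlf, a PAR bZIP factor that is enriched in stem cells and falls with differentiation, had normalized read counts of 683, 797 and 713 in sedentary and 305, 311 and 390 in transplant HSC. Active replicates 1 and 3 stood apart from each other, at 351 and 799, and the columns of library 6 at 206 and 795. The sedentary libraries all lay far above the transplant libraries. Between these groups the log2 fold change was -1.13 (standard error 0.14, limma adjusted p = 0.0137), a level of 335 ± 47.5 against 731 ± 58.9 (SD, n = 3 each).

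Meis1, a TALE homeodomain partner of Hox proteins, had 1545, 1580 and 1623 normalized reads in sedentary HSC and 1384, 1178 and 789 in transplant HSC. The groups did not overlap, but the transplant libraries were spread over nearly the whole distance from their lowest value to the sedentary level. Its log2 fold change of -0.54 had a 95% interval of -1.09 to 0.00 and did not pass the test (limma adjusted p = 0.160). Active replicate 1 held 989 normalized reads and replicate 3 held 1636. Library 6 held 967 or 1693. Of the exon length of Meis1, 18.3% is shared with Gm37818 or Gm16140.

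The cofactors did not move together. Hopx, an atypical homeodomain protein that does not bind DNA itself, was higher in transplant HSC. Its normalized read counts were 29.4, 31.7 and 28.5 in sedentary and 110, 104 and 118 in transplant HSC, each group being tight and far from the other. Its log2 fold change was 1.85 with a 95% interval of 1.59 to 2.12 (limma adjusted p = 0.00516), so that 29.9 ± 1.67 normalized reads in sedentary stood against 111 ± 7.02 in transplant HSC (SD, n = 3 each). Behind the sedentary values lay 18, 18 and 57 reads. Active replicates 1 and 3 held 50.2 and 18.2, and library 6 held 116 in the table with sedentary HSC and 20.2 in the other. Of its exon length, 27.2% is shared with the antisense gene Hopxos.

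Mllt3, a reader of acylated histones in the super elongation complex that supports stem cell maintenance, had overlapping groups. Its normalized read counts were 340, 451 and 520 in sedentary and 633, 531 and 391 in transplant HSC. Its log2 fold change was 0.24 with a 95% interval of -0.36 to 0.84. Active libraries lay within the sedentary range, at 399 and 468 and at 392 or 448 for library 6.

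Fgd5, an exchange factor for Cdc42 whose reporter marks stem cells, was among the lowest members. It held 34.3, 72.3 and 52.0 normalized reads in sedentary HSC and 25.4, 15.9 and 4.09 in transplant HSC, from 10 to 18 reads per transplant library. The groups did not overlap, and transplant replicate 3 lay far under the other libraries of its group. Fgd5 had a log2 fold change of -1.97 with a wide 95% interval of -3.57 to -0.37, which did not pass the test (limma adjusted p = 0.104). Library 6 held 113 normalized reads in 1 column and 2.82, from 2 reads, in the other.

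Of the surface proteins, Slamf1 was the only one past the threshold between transplant and sedentary HSC. Slamf1 encodes CD150, the receptor used to sort long-term and myeloid-leaning stem cells. Its normalized read counts were 47.4, 51.1 and 48.0 in sedentary and 299, 142 and 101 in transplant HSC. Every transplant library was higher than every sedentary library, and replicate 1 was highest. The log2 fold change was 1.72 with a 95% interval of 0.75 to 2.69 (limma adjusted p = 0.0472). Active replicates 1 and 3 held 80.0 and 69.4, above all sedentary and under all transplant libraries. Library 6 held 452 in the table with sedentary HSC and 56.6 in the other.

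Kit and Ly6a, the highest of the 10 genes per kb, had overlapping groups. Kit held 5111, 5630 and 6433 normalized reads in sedentary and 5691, 6959 and 6585 in transplant HSC, and the active libraries ran from 5328 to 7261. Its log2 fold change of 0.16 had a 95% interval of -0.18 to 0.51. Ly6a held 1653, 1322 and 1019 in sedentary and 950, 880 and 1052 in transplant HSC. These groups overlapped through sedentary replicate 3 and transplant replicate 3, and the log2 fold change was -0.45 with an interval of -0.94 to 0.05 (limma adjusted p = 0.192). Procr, the endothelial protein C receptor, held 78.5, 120 and 72.0 in sedentary and 87.6, 73.5 and 31.1 in transplant HSC. Its groups overlapped as well, and the interval of its log2 fold change of -0.58 ran from -1.64 to 0.48.

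**Figure D1:**
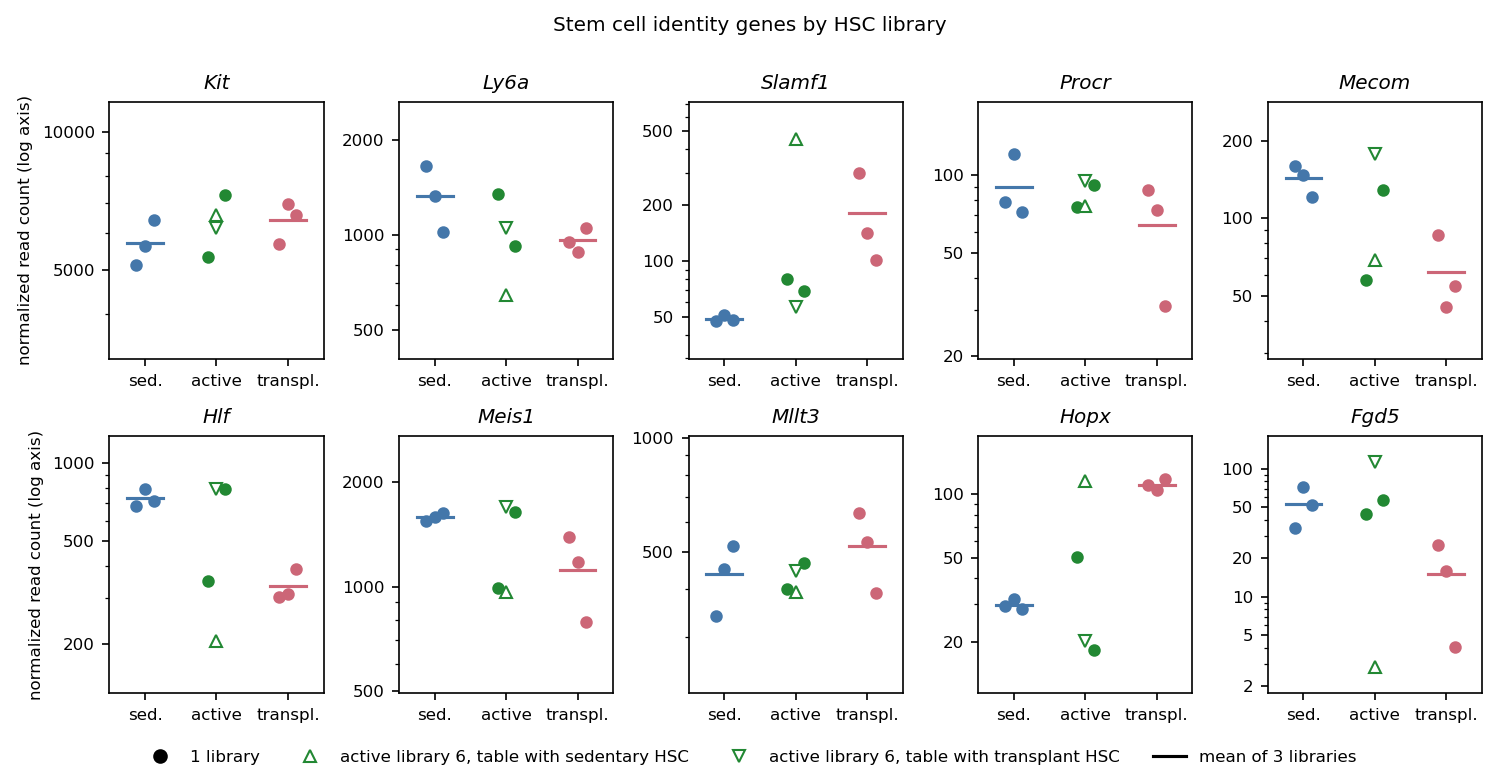
Normalized read counts (log axis, 1 panel per gene) of the 10 stem cell identity genes in sedentary, active and transplant HSC libraries, with points for single libraries, open triangles for the columns of library 6 and lines for the mean of 3 libraries. Hopx and Slamf1 lie higher and Mecom and Hlf lower in all 3 transplant than in all 3 sedentary libraries, while Kit overlaps.

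Set against all genes, the difference between transplant and sedentary HSC reached the members in both directions. Of 13329 genes tested, 1553 were called at a limma adjusted p under 0.05, which is 11.7%, and 4 of the 10 members were called. Hopx and Slamf1 were among the 7.94% called higher, and Mecom and Hlf among the 3.71% called lower. The groups did not overlap at 6 members, against 38.8% of all genes. Slamf1 and Hopx were higher in that way (20.4% of genes), and Mecom, Hlf, Meis1 and Fgd5 lower (18.4%). The median log2 fold change of the members was -0.49, against 0.00 for all genes, and their median absolute change was 0.85 against 0.31. An interval inside a 2-fold change either way was reached by 3 of the 10 members and by 62.4% of all genes. These libraries also differ in week, in transplantation and in the table that held them, and those cannot be told apart.

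When single libraries were left out, Hopx stayed called, while Mecom, Hlf and Slamf1 each lost their call in some fits. Such fits also hold fewer libraries. Only Hopx was called without sedentary replicate 1, sedentary replicate 2 or transplant replicate 2, where limma called 295, 236 and 255 genes in all (480 without transplant replicate 1). Hopx and Hlf were called without sedentary replicate 3. The median of the members was -0.22 without transplant replicate 3. Hopx was called in 21 of the 22 settings, Hlf in 16, Slamf1 in 12, Mecom in 11 and Fgd5 in 4. Within the shallower replicates 1 and 2 alone, Hopx (1.77) and Hlf (-1.26) were called, while Slamf1 (2.04) and Mecom (-1.29) had limma adjusted p-values of 0.0544 and 0.0867 (0.00012 to 0.172 and 0.00298 to 0.135 over all settings). On recovered reads, edgeR called the same 4 members (19.3% of genes), and DESeq2 these and Fgd5 (23.9%).

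Between active and sedentary HSC no member was called, with 0.0% of 13513 genes called by limma. At an unadjusted p under 0.05 there were 1252 genes, 9.27%, with 1 member, Mecom. edgeR called 0 genes and DESeq2 257, 1.9%, and the authors' deposited table has 223 with an adjusted p under 0.05, 1.65%, and no member was called by any of these. Slamf1 had the largest log2 fold change, 1.46 with a 95% interval of -0.35 to 3.27 (limma adjusted p = 0.475), and was the only member without overlap, higher in all 3 active libraries (10.4% of genes were higher without overlap). Mecom at -0.82 had an unadjusted limma p of 0.0464 and an adjusted p of 0.475. Kit at 0.15, Mllt3 at -0.04 and Procr at -0.12 had intervals inside a 2-fold change either way, which 61.6% of genes had.

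These values moved with the column taken for library 6. With the other column, the log2 fold change of Slamf1 was 0.47, that of Hlf -0.27 in place of -0.91, and that of Mecom -0.37. Fgd5 went from -1.25 to 0.37 and Hopx from 0.65 to -0.16. The median of the members was -0.28 with the column of the same table, -0.09 with the other and -0.05 in the fit of 8 libraries without library 6. No member was called in those fits, nor was any other gene.

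Between transplant and active HSC limma called 7 of 13633 genes, 0.0513%, and no member. This comparison shares its transplant libraries and active replicates 1 and 3 with the comparisons above. Hopx was nearest, with a log2 fold change of 2.02, a 95% interval of 1.05 to 2.98 and a limma adjusted p of 0.165. Fgd5 at -2.35 and Slamf1 at 1.24 had intervals of -4.05 to -0.64 and 0.22 to 2.27. Those 3 genes did not overlap between the groups (25.2% of all genes did not). Hlf and Mecom both stood at -0.87 with intervals that include 0.

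The tools differed here. The authors' deposited table gives adjusted p-values of 0.00167 for Hopx, 0.0181 for Fgd5, 0.0220 for Slamf1 and 0.0322 for Hlf, among 1080 genes under 0.05 (7.92%). DESeq2 on the recovered reads called the same 4 members among 1107 genes, 8.12%. Same-numbered libraries shared deviations here, although the labels state no pairing. With the replicate block limma called 0 genes, with 2832 at an unadjusted p under 0.05 (2422 without the block). Leaving out active replicates 2 or 3 gave 0 and 4 called genes, and leaving out transplant replicates 1, 2 or 3 gave 2, 0 and 22, none of them a member. Without active replicate 1, 79 genes were called and Hopx was among them (log2 fold change 2.46, limma adjusted p = 0.0194, with 0.000928 to 1.00 over all settings). With the other column of library 6, Hopx stood at 1.20, Fgd5 at -0.71 and Slamf1 at 0.26, and 1 gene (0.00747%) and no member was called.

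**Figure D2:**
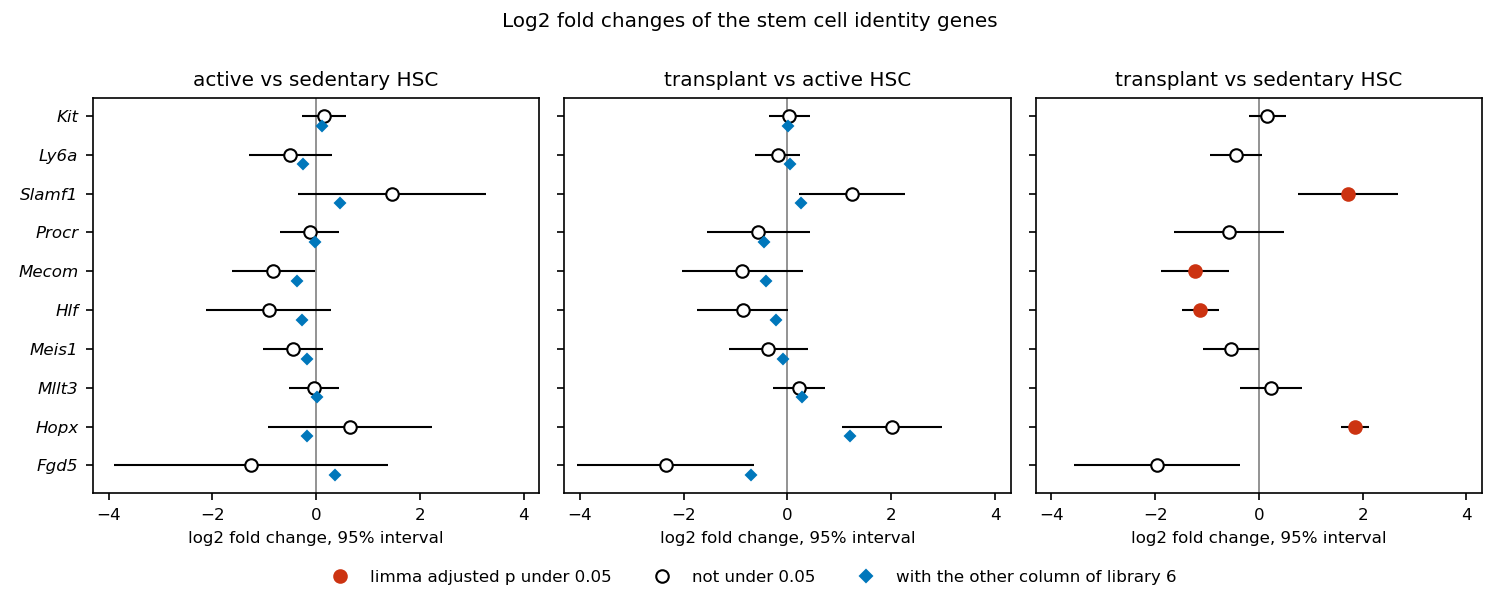
Log2 fold changes of the 10 genes with 95% intervals (limma) in the 3 comparisons, filled circles for an adjusted p under 0.05 and blue diamonds for the value with the other column of library 6. Only transplant against sedentary HSC has filled circles, at Hopx, Slamf1, Hlf and Mecom, and the diamonds lie nearer to 0 for Slamf1 and Hlf in the other panels.

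Taken library by library, the members of active HSC did not hold a common place between the other groups. Active replicate 1 was nearer to the transplant mean than to the sedentary mean at 4 of 10 members, Mecom, Hlf, Meis1 and Procr, and active replicate 3 at 2, Kit and Ly6a. Library 6 was nearer to transplant at 8 members in the column of the table with sedentary HSC and at 2, Kit and Ly6a, in the other. Across 9 libraries with the latter column, log2 levels of Hlf correlated with Hopx at -0.92 and with Mecom at 0.89, and those of Procr with Fgd5 at 0.86 (Pearson r, a description over libraries that share group, depth and scale). With the former column these were -0.90, 0.81 and 0.66.

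Myeloid genes rose between the same libraries. All 13 neutrophil granule and maturation genes tested were higher in transplant than in sedentary HSC, with a median log2 fold change of 4.13. Of these 13, limma called 12 higher, against 7.94% of all genes. S100a8 and S100a9, the subunits of calprotectin, rose by 4.13 and 4.74 with limma adjusted p-values of 0.00516 each. S100a8 stood at 372 ± 123 normalized reads in sedentary and 6368 ± 891 in transplant HSC (SD, n = 3 each). Lcn2, an iron-binding granule protein, had a log2 fold change of 2.94 and Chil3 one of 4.92. Retnlg is counted in the list although it passed the filter through transplant HSC alone. It was at 0 reads in every sedentary library and at most 6 reads in a transplant library, so no fold is given. Without it 11 of 12 were called higher and the median was 4.25.

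Of 14 myeloid progenitor genes, 13 were higher and 1 lower, with a median of 1.07. Of these 14, limma called 10 higher and 1 lower, against 7.94% and 3.71% of all genes. Mpo, myeloperoxidase of primary granules, had a log2 fold change of 1.65 (limma adjusted p = 0.0113), Ly6c2 3.16 and the Fc receptor gene Fcgr3 2.73. Irf8, a factor for monocyte and dendritic cell fate, was the gene that fell, by 1.47 on the log2 scale. Across libraries the summed level of the neutrophil list ran from 3066 to 3954 normalized reads in sedentary, 5325 to 17998 in active replicates 1 and 3, and 37812 to 41426 in transplant HSC. It reached 147749 in 1 column of library 6 and 3823 in the other, the same columns in which Hlf stood at 206 and 795.

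**Figure D3:**
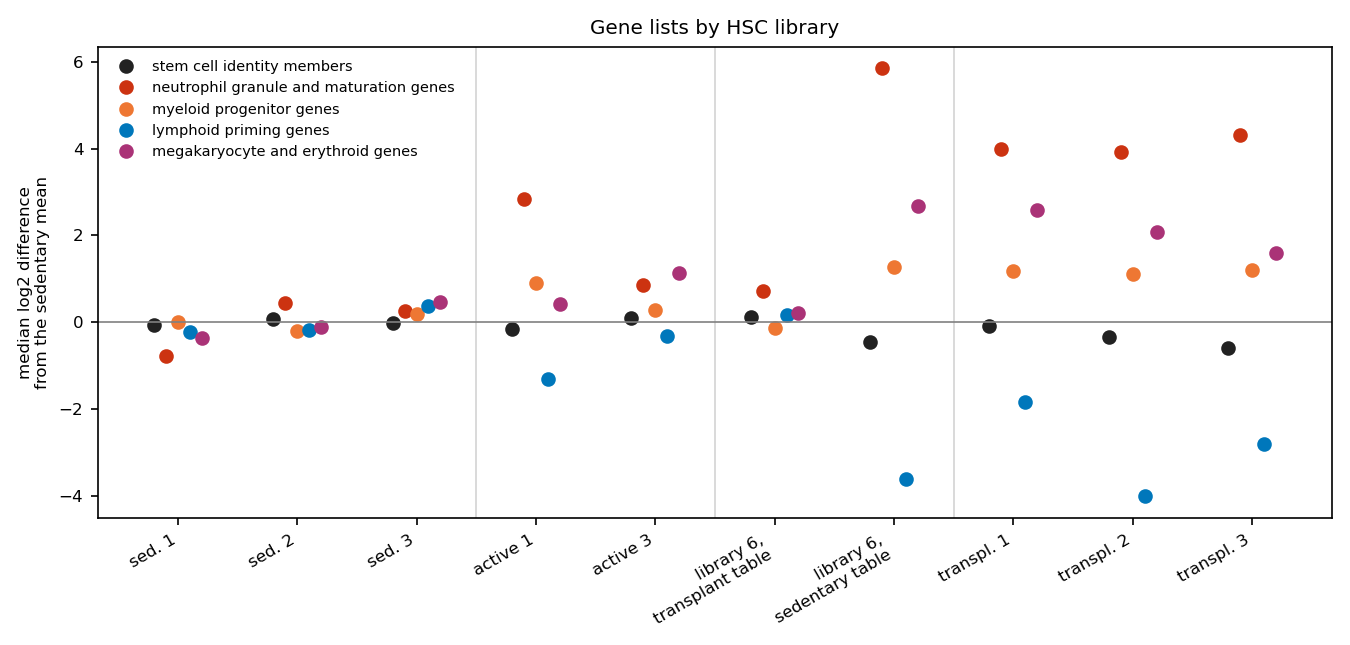
Median log2 difference from the sedentary mean, per HSC library, for the 10 stem cell identity genes and for lists of neutrophil, myeloid progenitor, lymphoid and megakaryocyte and erythroid genes. The median of the members stays between -0.61 and 0.11 in all columns, with members on both sides of 0. That of the neutrophil list reaches 3.92 to 4.32 in transplant libraries and 5.85 in 1 column of library 6. The members' median absolute difference, not drawn, was 0.63, 0.90 and 1.02 in transplant replicates 1 to 3.

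In each library the median of the members hides genes that moved apart. Their median difference from the sedentary mean was -0.10, -0.34 and -0.61 in transplant replicates 1 to 3, -0.15 and 0.09 in active replicates 1 and 3, and -0.46 or 0.11 in library 6. Within transplant HSC the neutrophil list was alike in these 3 libraries (3.99, 3.92 and 4.32), while the members ran lower in replicate 3 than in replicate 1. The megakaryocyte and erythroid list ran the same way as the members there, with 2.58, 2.07 and 1.59.

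Other stem cell genes also went both ways. Of 19 further long-term HSC genes tested, 12 were higher and 7 lower in transplant than in sedentary HSC, with a median of 0.29. Of these, limma called 2 higher and 3 lower, against 7.94% and 3.71% of all genes. Vwf, von Willebrand factor, which marks platelet-leaning stem cells, rose by 3.33 on the log2 scale (limma adjusted p = 0.0137), from 302 ± 78.1 to 3241 ± 1592 normalized reads (SD, n = 3 each). The calcium channel gene Trpc6 rose by 2.44. Eng, the TGF-beta coreceptor endoglin, had a log2 fold change of -1.19 and Ndn, the growth suppressor necdin, one of -3.41. Ndn held 0 to 5.31 normalized reads in transplant HSC, from at most 13 reads in a library, so its fold rests on few reads. Robo4, counted among those called lower, held 2 reads or fewer in each transplant library, so no fold is given, and without it the median was 0.31.

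Stem and progenitor transcription factors were called at 5 of 22, against 11.7% of all genes, with a median of -0.13. Prdm16, a zinc finger relative of Mecom that supports stem cell maintenance, fell from 144 ± 47.6 to 10.7 ± 6.05 normalized reads, a log2 fold change of -3.70 (limma adjusted p = 0.0106). Hoxa9, a homeodomain partner of Meis1, fell by 1.71 and Hoxa5 by 1.38 on the log2 scale. Gfi1, a repressor in stem cells and neutrophil precursors, rose by 1.52 and the ETS factor Fli1 by 0.65. Tal1, Lmo2, Runx1 and Gata2 did not pass the test, with log2 fold changes of -0.09, -0.22, 0.40 and 0.57.

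Of the 5 multipotent progenitor surface genes, which long-term stem cells largely lack, 4 were lower and 1 higher. Of these 5, limma called 3 lower, against 3.71% of all genes. Flt3, the receptor of multipotent and lymphoid-primed progenitors, fell from 2484 ± 176 to 153 ± 93.0 normalized reads, a log2 fold change of -4.18 (limma adjusted p = 0.00908). Cd27 and Cd34 had log2 fold changes of -2.35 and -1.24, and Cd48 one that did not pass. Of 11 lymphoid priming genes, 8 were lower and 3 higher, with a median of -2.87. Of these 11, limma called 7 lower and 1 higher, against 3.71% and 7.94% of all genes. Among those called lower, Rag2 passed the filter through sedentary HSC alone. Rag2, a subunit of the V(D)J recombinase, held 39.9 ± 19.1 normalized reads in sedentary HSC (SD, n = 3) and at most 5 reads in any transplant library, so no fold is given. Without it 6 of 10 lymphoid genes were called lower, with a median of -2.76. Of 15 megakaryocyte and erythroid genes, 14 were higher and 1 lower, with a median of 2.01. Of these 15, limma called 6 higher, against 7.94% of all genes. Pf4, platelet factor 4, and Ppbp, another platelet chemokine, stood at 3.56 and 4.77. Of 15 proliferation genes limma called 0 (median -0.19), with 3 at an unadjusted p under 0.05 (4227 of 13329 genes in all). Of the same 15, edgeR called 1 lower and DESeq2 3, against 19.3% and 23.9% of all genes called in either direction.

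**Figure D4:**
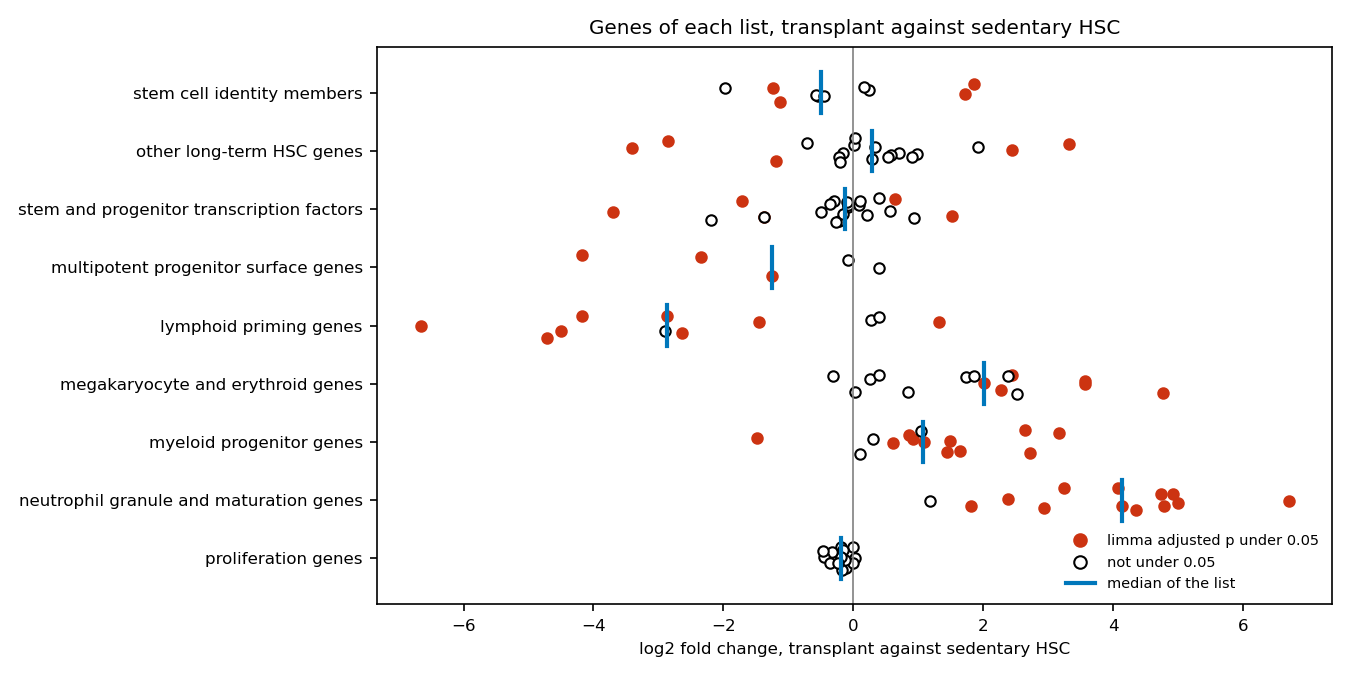
Log2 fold changes of transplant over sedentary HSC for the genes of 9 lists, filled for a limma adjusted p under 0.05, with a blue bar at each list's median. The stem cell lists hold called genes on both sides of 0, and the neutrophil and lymphoid lists lie at 4.13 and -2.87.

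Between active and sedentary HSC limma called no gene of these lists. At an unadjusted p under 0.05 were 6 of 13 neutrophil and 7 of 14 myeloid progenitor genes, against 9.27% of all genes. DESeq2 with the column of the same table called 9 neutrophil, 3 myeloid progenitor and 3 megakaryocyte and erythroid genes higher, against 1.9% of all genes, and with the other column it called 0 genes in all. The median over the neutrophil list was 3.06 with the column of the same table, 1.48 with the other and 1.95 in the fit of 8 libraries. The myeloid progenitor medians were 0.77, 0.26 and 0.52, and the lymphoid medians -2.16, -0.29 and -0.75 in that order. Between transplant and active HSC, the neutrophil median was 2.76 with the column of the same table, 0.95 with the other and 2.41 in the fit of 8 libraries. In the same fits the median of the members was -0.28, -0.09 and -0.05 in the first comparison and -0.28, -0.04 and -0.22 in the second (-0.12 without transplant replicate 3).

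Markers of other cell types also moved. The summed level of 6 monocyte and macrophage markers was 18656 to 20367 normalized reads in sedentary and 28402 to 62189 in transplant HSC. Of these 6, 4 were higher and 2 lower. Limma called Lyz2 and C1qb higher (log2 fold changes 3.28 and 4.16), against 7.94% of all genes. The lower ones were Ccr2 at -0.77 and Mrc1 at -0.36, and the median difference from the sedentary mean was 1.37, 0.94 and 0.32 in transplant replicates 1 to 3. Nkg7 and Gzmb, the T and NK cell markers listed in both tables, summed to 1493 to 2263 and 3766 to 4411, and Cd79b and Ebf1, the B cell markers listed, to 181 to 252 and 99.2 to 151. Fgd5 and Procr are also expressed by endothelium. The 6 endothelial markers summed to 67.0 to 121 in sedentary and 146 to 285 in transplant HSC, but 3 were higher and 3 lower, and limma called 0. Their median difference from the sedentary mean was -1.10, 0.76 and 0.66 in transplant replicates 1 to 3. The log2 fold changes of these 6 endothelial markers ran from -2.35 to 2.10. Cdh5, 1 of those that were lower, stood at 14.1 to 17.0 in sedentary and 0 to 7.35 in transplant HSC. The part of these cells in the members' values was not tested.

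Over 9 libraries, Crk, Afap1l1 and Slco3a1 were the genes nearest to the members' mean centred log2 level, among 10799 with a mean of at least 50. Their Pearson correlations to it were 0.963, 0.926 and 0.920. That level averages members that moved apart, so likeness to it is not likeness to single members. With the other column of library 6 they were Crk at 0.974, Slco3a1 at 0.960 and Faah at 0.947. Crk ran from 2654 normalized reads in transplant replicate 3 to 3645 in that column. The 9 libraries share group, depth and scale, so the likeness is a description.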

How the data were processed

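RNA of sorted HSC was extracted with a column kit and sequenced from a stranded mRNA kit, per the labels' protocols. The build was mm10 per the submitters' processing notes. The aligner, counter and annotation are not given in the sources used here, and the labels name DEBrowser. The authors deposited a normalized signal per gene and library, whose values were whole multiples of 1 step per column (100% of values within 0.01), so whole reads were recovered. The authors also deposited a log2 fold change, a linear fold ratio, a p-value and an adjusted p-value, its −log10, and a test score per gene. The authors' fold changes were turned to active over sedentary and transplant over active. Members and lists were chosen with earlier results of these data known.

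Main tests used limma 3.58.1 in R 4.3.3 on log2(value + 1), a scale that understates the change of low genes, and kept a gene whose group mean reached 1 in 1 of the groups. Benjamini-Hochberg adjustment ran over all genes, called at 0.05. Transplant and sedentary HSC were compared on recovered reads brought to 1 scale by the median of ratios. Up to 4 genes per list were named, called genes first, by adjusted p, then by the smallest p where the higher group averaged 50 or more. Names outside this rule (Robo4, Retnlg, Hoxa5, Cd48, Mki67, Tal1, Lmo2, Runx1, Gata2), apart from the cell type markers, were chosen after their values were seen. A group with 3 reads or fewer in every library was treated as at the floor, which covers counting error only. edgeR 4.0.16 and DESeq2 1.42.0 on recovered reads, limma-voom, other scalings, filters, pseudocounts, left-out libraries, a name-style term and the replicate block were alternatives. Same-numbered libraries deviated together in transplant and active HSC (Pearson r of 0.105, 0.116 and 0.318 across genes, all over 0.1). The labels state no pairing, and whether paired samples, shared depth or name style lay behind this was not tested. The other comparisons each had a pair under 0.1. The procedure was tested on simulated data with log2 changes of 3 at genes averaging 50 or more, so smaller changes and lower genes were not covered.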

Additional observations from a re-analysis of the deposited data

How the results depend on the processing

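The fit of 8 libraries, the fit of 9 with library 6 from the table with transplant HSC, and count tests with the other column of library 6 were chosen after seeing the data. Of the values for the 3 comparisons, 155 alternatives for counts and medians and 631 for single members kept direction and side of the threshold (counts within 1.5 times). For counts and medians 52 moved further, and for single members 22 reversed, 28 lost a call and 9 gained one. The cause was not tested for the others. Depth limits Fgd5, Hopx, Procr, Slamf1 and Mecom, with 2 to 321 reads per library.

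Between active and sedentary HSC, DESeq2 called 257 genes and a pseudocount of 0.1 gave 1. The median of the members ran from -0.349 to -0.051 without single libraries, and was -0.51 within replicates 1 and 2, -0.049 in the fit of 8 libraries, and -0.034 with edgeR and -0.031 with DESeq2 on the other column of library 6. With that column Fgd5 turned to 0.37 in both limma fits and to 0.42 with edgeR and 0.43 with DESeq2, and Hopx to -0.16 and -0.17 with limma (its own fit and 9 libraries), -0.033 with edgeR and -0.030 with DESeq2. Mllt3 turned to 0.022 and 0.020 in these limma fits, 0.015 within replicates 1 and 2 and 0.0048 in the fit of 8 libraries, and ran from -0.21 to 0.091 without single libraries. Procr turned to 0.012 with limma-voom and ran from -0.27 to 0.10.

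Between transplant and active HSC, genes called were 1107 with DESeq2, 19 for limma with trend, 1 with edgeR and 0 each with limma-voom, the name-style term, replicates 1 and 2 alone and 9 libraries. They were 21 in the 9-library fit with the column of the same table, 4 with 8 libraries, 1 with the other column, 0 with edgeR and 2 with DESeq2 on it, and 0 to 79 without single libraries. Members called were 4 with DESeq2 and 0 to 1 without single libraries. The median of the members was -0.045 within replicates 1 and 2, -0.043 with 9 libraries and -0.042 with the other column. Ly6a turned to 0.046 with 9 libraries and 0.047 with the other column, Slamf1 to -0.13 with edgeR and -0.14 with DESeq2 on it, and Kit ran from -0.073 to 0.16 without single libraries.

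Between transplant and sedentary HSC, genes called were 2566 with edgeR, 3181 with DESeq2, 2752 for limma with trend, 2346 with TMM-scaled counts, 3 with 9 libraries and 236 to 1674 without single libraries. Members called were 2 with the name-style term, 2 within replicates 1 and 2, 0 with 9 libraries, 2 with 8 libraries and 1 to 4 without single libraries. The median of the members was -0.28 within replicates 1 and 2 and -0.58 to -0.22 without single libraries.

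With the replicate number as a block, 0 genes were called between transplant and active HSC, where same-numbered libraries deviated together. Between transplant and sedentary HSC, where not all of them did, the replicate block left 95 of 13329 genes and 1 member, Hopx. With it 6 of 13 neutrophil, 1 of 14 myeloid progenitor, 1 of 11 lymphoid and 1 of 15 megakaryocyte and erythroid genes were called there, and 0 of the further stem cell genes, transcription factors and multipotent progenitor genes. Between active and sedentary HSC it changed no call of a member or of these lists, which was 0 with and without it.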
